A study of Mus musculus with 2 samples.

Results

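The Ly49 receptors and their relatives are lectin-like proteins by which natural killer (NK) cells read the surface of other cells. The 10 genes described here were chosen by symbol from the 32285 features of the deposited matrices. They are 5 Ly49 genes (Klra3, Klra4, Klra7, Klra8 and Klra9) and 5 other receptor genes (Klrb1c, Klrc1, Klrd1, Klrk1 and Klre1). All 10 were found in both matrices. They were measured by droplet single-cell RNA sequencing of tumours grown from MC38, a mouse colon carcinoma cell line. One library came from a tumour sample whose genotype label is Mbtps1 WT, called control here. The other came from a sample labelled Mbtps1 KD, called knockdown here, which the series text describes as a knockout. Mbtps1 encodes site-1 protease, which cuts membrane-bound transcription factors in the Golgi. The sources used here do not say which cells carried the alteration, how it was made, what host mice were used, how old they were or how many tumours were pooled. With 1 library per group, no difference below has a replicate check, the tumour and the library cannot be told apart, and no p-value is given.

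Most of these genes lie in the NK gene complex, a cluster of lectin-like receptor genes. Inhibitory Ly49 receptors bind MHC class I on a target cell and carry a tyrosine motif in their cytoplasmic tail, called ITIM, that recruits phosphatases and holds back killing. Activating Ly49 receptors lack that motif and signal through the adaptor DAP12, encoded by Tyrobp. Of the other receptors, CD94 (Klrd1) pairs with NKG2A (Klrc1) to bind Qa-1, and NKG2D (Klrk1) binds stress-induced ligands of the Raet1, Ulbp and H60 families. In the GENCODE vM21 annotation of GRCm38 all 10 genes are on chromosome 6 and are protein-coding. Since no source used here names the genome build of the deposited matrices, GENCODE served only for gene structure and sequence.

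The inhibitory and activating members can be told apart at the start of their coding sequence, which is how the values below are ordered. The first 90 coding bases of 6 members are printed because this stretch holds, or lacks, the ITIM. Capitals mark 6 codons that translate to V, I, L or S, any residue, Y, any pair of residues, and L, V or I, as found by translating the first 30 codons.
Klra3: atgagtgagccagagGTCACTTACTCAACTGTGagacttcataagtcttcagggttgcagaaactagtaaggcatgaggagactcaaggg
Klra7: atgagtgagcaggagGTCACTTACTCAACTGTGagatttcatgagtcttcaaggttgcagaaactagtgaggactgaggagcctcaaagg
Klra9: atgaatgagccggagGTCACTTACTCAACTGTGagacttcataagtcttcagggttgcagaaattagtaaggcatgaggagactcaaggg
Klrc1: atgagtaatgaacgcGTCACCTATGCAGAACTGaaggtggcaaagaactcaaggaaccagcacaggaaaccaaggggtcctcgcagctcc
Klra4: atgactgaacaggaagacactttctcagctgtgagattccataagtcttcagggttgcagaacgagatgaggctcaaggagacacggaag
Klra8: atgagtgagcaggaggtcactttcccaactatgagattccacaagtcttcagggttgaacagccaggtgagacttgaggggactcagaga
The inhibitory receptors Ly49C (Klra3), Ly49G (Klra7) and Ly49I (Klra9) shared the same 18 bases of the motif, and NKG2A had its own version at the same place. In the activating receptors Ly49D (Klra4) and Ly49H (Klra8) the motif was not found in this window. Counted from the A of the start codon, both carried the substitution A23T against Klra7, which turns the tyrosine codon tac at bases 22 to 24 into ttc. Klra3 and Klra9 were 95.9% identical over their aligned coding sequence. Over the last 500 bases of their transcripts, the stretch a 3' library reads, they were 98.2% identical. Of 411 windows of 90 bases there, 8.52% in Klra3, 10.2% in Klra7, 14.1% in Klra9 and 32.6% in Klrc1 also occurred in another gene (Klrc2 in the case of Klrc1). No source used here says how such reads were assigned, so the split between Klra3 and Klra9 and between Klrc1 and Klrc2 is uncertain. Klra4, Klra8 and the other 4 members had no shared window.

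The libraries held 177399315 and 174190399 UMIs in control and knockdown, a UMI being the tag that lets each captured RNA molecule be counted once. Of these droplets, 11150 and 15965 were kept as cells, more than the 3000 per channel that the labels' protocol names, and 50 barcodes occurred in both. Median UMIs per kept cell were 8213 in control and 4898 in knockdown, so shares of cells are given after each cell was thinned to 1000 UMIs. Cells were clustered without any gene listed under a Klr symbol and named from marker genes, and 370 control and 1280 knockdown cells stayed unnamed. In tumour-like cells Mbtps1 itself stood at 28.8 CPM (UMIs of the gene per 1000000 UMIs of the class) in control and 12.3 CPM in knockdown. That is a ratio of 0.427 (95% interval 0.399 to 0.457). In NK-like cells it stood at 27.1 and 25.8 CPM, a ratio of 0.952 (0.589 to 1.53).

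NK-like cells numbered 270 in control and 465 in knockdown, or 32.5% and 21.1% of the lymphocytes, with 1511418 and 1354869 UMIs. CD8 T-like cells numbered 286 and 1062, with 1102097 and 2646508 UMIs. Levels below carry 95% exact intervals that cover counting error only. A sum over a class cannot tell fewer expressing cells from less RNA in each. Summed Cd3d, Cd3e and Cd3g, which mark T cells, stood at 104.5 CPM in control and 172 CPM in knockdown NK-like cells, against 2431 CPM in CD8 T-like cells.

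Compared with CD8 T-like cells, NK-like cells held the Ly49 genes, Klrb1c and Klre1 at clearly higher levels in both libraries, while Klrc1 was lower. Klrk1 was somewhat higher, with ratios of 1.45 (1.28 to 1.66) in control and 1.18 (1.06 to 1.32) in knockdown. Klrd1 had 1.25 (1.14 to 1.36) in control and an interval that included 1 (0.927 to 1.08) in knockdown. The 5 Ly49 genes, Klrb1c and Klre1, 7 of 10 members, were at least 2 times higher in NK-like cells with an interval that left out 1, in control and again in knockdown. Over all features with at least 50 UMIs, 4.51% passed that fold in control and 3.28% in knockdown. In the other direction 1 member, Klrc1, was at least 2 times lower in control, where 5.4% of all features were. In knockdown no member was, against 5.2% of all features. The members' median log2 ratio of NK-like over CD8 T-like cells was 3.11 in control and 3.00 in knockdown, and that of all features was -0.07 in both.

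Among the inhibitory Ly49 genes, Klra7 showed the widest gap between the NK-like cells of the 2 libraries. It had 670 UMIs in control and 291 in knockdown, or 443.3 and 214.8 CPM, a ratio of 0.485 (0.421 to 0.557) and 2.06-fold lower in knockdown. The intervals of the 2 levels did not overlap. Klra9, which encodes Ly49I, stood at 135.6 and 93.0 CPM from 205 and 126 UMIs, a ratio of 0.686 (0.545 to 0.860). Klra3, which encodes Ly49C, stood at 86.0 and 72.3 CPM from 130 and 98 UMIs, a ratio of 0.841 (0.640 to 1.10). So the point values of all 3 inhibitory Ly49 genes were lower in knockdown, but the interval of Klra3 included 1.

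The activating Ly49 genes differed from each other in their ratios. Klra4, which encodes Ly49D, stood at 346.7 and 256.1 CPM from 524 and 347 UMIs, a ratio of 0.739 (0.643 to 0.848). Klra8, which encodes Ly49H, a receptor known for recognising a cytomegalovirus protein, was near level at 222.3 and 243.6 CPM. Its ratio was 1.10 (0.938 to 1.28) from 336 and 330 UMIs. Tyrobp, the adaptor through which both signal, stood at 1824 and 1699 CPM (ratio 0.931).

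Among the other receptors, 2 were level between the libraries and 3 were somewhat lower in knockdown. Klrb1c encodes NK1.1, the standard surface marker of NK cells in some mouse strains, and stood at 289.1 and 304.1 CPM (1.05, 0.917 to 1.21). The inhibitory chain gene Klrc1 stood at 197.8 and 215.5 CPM (1.09, 0.924 to 1.28). Its partner Klrd1 had the most UMIs of the 10, 1413 and 1021, and stood at 934.9 and 753.6 CPM (0.806, 0.743 to 0.874). In the class sum Klrd1 therefore was lower while Klrc1 was not. The thinned shares of cells were lower in knockdown for both, 20.7% and 15.2% for Klrc1 and 56.0% and 47.8% for Klrd1. Klrk1, the NKG2D gene, stood at 464.5 and 383.1 CPM (0.825, 0.735 to 0.925). Klre1, which encodes NKG2I, a receptor related to the NKG2 family, stood at 530.0 and 458.3 CPM (0.865, 0.778 to 0.962).

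Of the 10 members, 1 was past a fold of 1.5 in NK-like cells, Klra7, lower in knockdown, where 3.23% of 6249 features were. None was higher, where 5.97% of all features were. The members' median log2 ratio was -0.26, and that of all features was 0.05. Leaving out, in each library, the cell with the most UMIs of a gene left Klra7 past the fold. The largest share of Klra7 UMIs in any single NK-like cell was 4.78%.

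**Figure D1:**
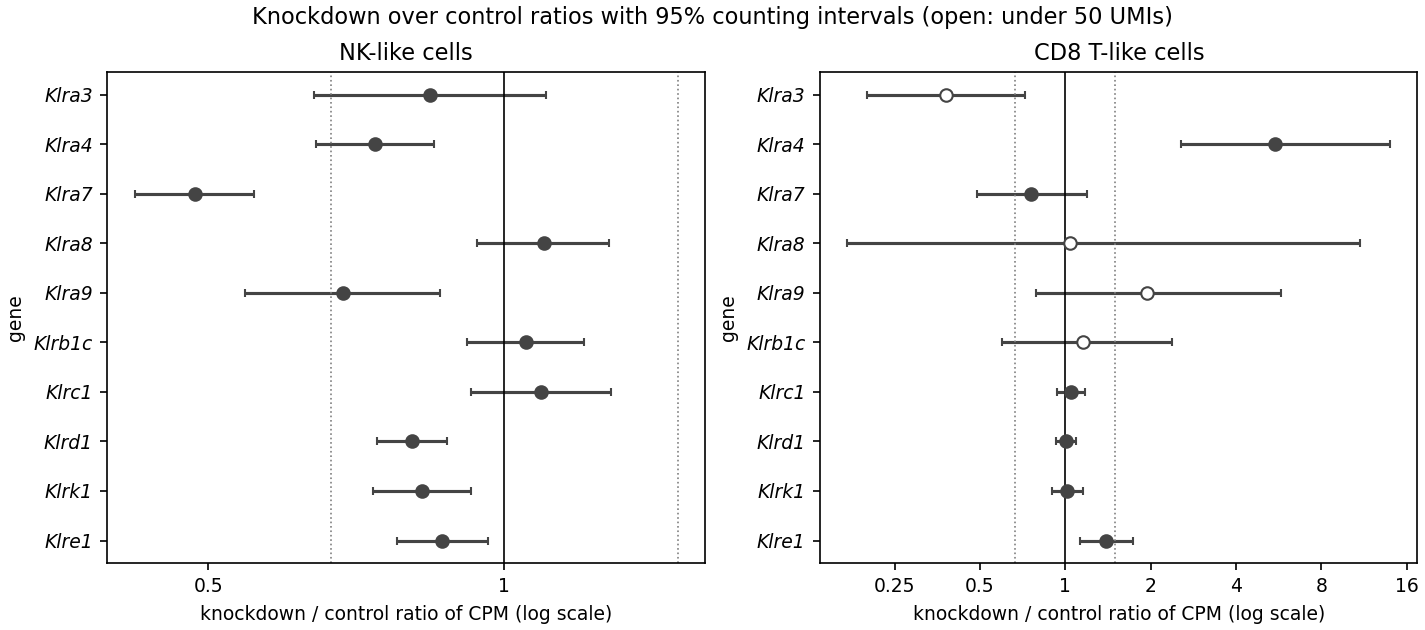
Knockdown over control ratio of each receptor gene (log axis) in NK-like and in CD8 T-like cells, with 95% intervals for counting error and lines at 1 and at the fold of 1.5. Klra7 lies past the fold in NK-like cells at 0.485, and Klra4 in CD8 T-like cells at 5.47.

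Shares of cells pointed the same way for most members. Thinning to 1000 UMIs left 266 control and 429 knockdown NK-like cells and set 4 and 36 aside. After it, 9 of 10 members had a lower share of cells with a UMI in knockdown, counting Klra8, which was level. The same count over all features was not made, so this number has no background beside it. A UMI of Klra7 was seen in 25.2% (20.1 to 30.9) of control and 16.8% (13.4 to 20.7) of knockdown NK-like cells. The shares were 14.3% and 6.06% for Klra9, 10.5% and 7.69% for Klra3, and 27.1% and 20.5% for Klra4. For Klra8 they were level, 19.5% and 19.3%. Klrk1 was seen in 45.1% and 29.4%, Klrd1 in 56.0% and 47.8%, Klrc1 in 20.7% and 15.2%, and Klre1 in 41.4% and 39.9%. Klrb1c alone had the higher share in knockdown, 29.7% against 30.1%. In CD8 T-like cells, which mostly lack Ly49 receptors, the thinned shares of the 5 Ly49 genes and Klrb1c lay at or below 3.90%.

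NK cells express Ly49 genes in varied combinations, so the number detected per cell was counted. After thinning, at least 1 of the 5 Ly49 genes was seen in 154 of 266 control NK-like cells, 57.9% (51.7 to 63.9), and in 197 of 429 knockdown cells, 45.9% (41.1 to 50.8). A single Ly49 gene was seen in 28.6% and 25.6% of cells, a pair in 21.4% and 16.3%, and 3 or more in 7.89% and 3.96%. None was seen in 42.1% and 54.1%. Because Klra4 also occurs outside lymphocytes, as described below, the count was repeated without it, and cells with none then made up 50.8% and 60.6%. At 1000 UMIs per cell a gene that is expressed can go unseen, so these are shares with a UMI, not shares of expressing cells.

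Over all NK-like cells pooled, Klra8 was seen more often in cells with a Klra4 UMI than in those without. In knockdown, Klra8 was seen in 46.6% (35.9 to 57.5) of NK-like cells with a Klra4 UMI and in 12.3% (9.02 to 16.3) of those without. In control the same shares were 31.9% and 14.9%. Klra3 was seen in 19.4% of control cells with Klra4 and 7.22% of those without, but in 6.82% and 7.92% of knockdown cells. In cells with and without a Klra8 UMI, Klra3 was seen in 21.2% and 7.94% in control and in 8.43% and 7.51% in knockdown. Both activating genes also differed in level between NK subclusters, as given below, and no pair was counted within a subcluster. Cells of a class share their library and differ in depth even before thinning, so these pairs are a description.

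The NK-like cells fell into 3 subclusters, and the activating Ly49 genes differed widely between the 2 larger ones. The first, 107 control and 238 knockdown cells, was led by Ccl5, Cma1, Itgam and Itga2 among others, the last a gene of conventional NK cells, and had low granzyme C to G genes. The second, 139 and 203 cells, was led by Gzmg, Gzmf, Gzme, Gzmd and Ccl1. Of the listed genes of tissue-resident cells, Itga1, Tnfsf10 and Inpp4b stood there at 212.8, 89.3 and 517 CPM in control. In the first they stood at 41.0, 26.1 and 11.2 CPM, and they were also higher in the second in knockdown. The other genes of that list had intervals that included 1 in control. Eomes stood at 175 CPM in the first and 121.5 CPM in the second. Whether the 2 groups are different kinds of cell was not tested. The third was a cycling group of 24 cells in each library. No gene listed under a Klr symbol was used in the clustering. Against the other NK-like cells, none of the 10 members was among the 10 leading genes of a subcluster. Against all other lymphocytes, Klra8, Klra4, Klrb1c and Klra9 were among those of the granzyme-low and Klra7 among those of the granzyme-high subcluster. In control, Klra4 stood at 1005 CPM in granzyme-low and 201.4 CPM in granzyme-high cells, and Klra8 at 510.2 and 156.8 CPM. Klrb1c stood at 569.7 and 231.5 CPM, Klra9 at 305.4 and 102.8 CPM, and Klra3 at 208.5 and 51.9 CPM. The exceptions were Klra7, at 461.7 and 510.8 CPM, Klrc1, at 193.6 and 198.3 CPM, and Klrd1, at 823.0 and 982.1 CPM, which were as high in granzyme-high cells. Since subclusters were cut from the expression of the same cells, these gaps are a description.

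Klra7 and Klra9 were past the fold of 1.5 in both larger subclusters, and Klra3, Klra4 and Klrk1 in granzyme-low cells. In granzyme-low cells Klra7 stood at 461.7 and 251.4 CPM (0.544, 0.416 to 0.711), and in granzyme-high cells at 510.8 and 223.8 CPM (0.438, 0.367 to 0.521). Klra4 had ratios of 0.531 (0.443 to 0.636) and 0.718, Klra9 of 0.544 and 0.600, and Klra3 of 0.478 and 1.21. Klrk1 was lower in granzyme-low cells, 748.5 and 405.5 CPM (0.542, 0.439 to 0.668), and level in granzyme-high cells, 376.9 and 383.5 CPM (1.02, 0.871 to 1.19). Klra8 had ratios of 1.01 (0.815 to 1.26) and 0.826. That makes 5 members in granzyme-low and 2 in granzyme-high cells, with 5 calls in the 24 cycling cells of each library (Klra4, Klra7, Klra8, Klrk1 and Klre1), all lower in knockdown. Of all features with 50 UMIs, 4.08% of 2305 were at least 1.5 times lower in granzyme-low, 2.66% of 4480 in granzyme-high and 4.82% of 1244 in cycling cells. No member was higher in any of the 3, where 5.03%, 4.82% and 5.87% of features were. Of the 10 members, 8 had 50 UMIs in cycling cells and all 10 in both larger subclusters. The difference between subclusters was not tested. Per cell, at least 1 of the 5 Ly49 genes was seen after thinning in 77.6% of control and 68.4% of knockdown granzyme-low cells, and in 46.7% and 32.7% of granzyme-high cells. Granzyme-low cells with 3 or more Ly49 genes made up 23.4% (25 of 107) in control and 3.35% (7 of 209) in knockdown. Each subcluster was thinned in a draw of its own. The draw over all NK-like cells held only 21 and 17 cells with 3 or more, so these small counts vary with the draw. Knockdown NK-like cells came more often from the granzyme-low group, where Klra4, Klra8 and Klrb1c are high, and with the 2 larger subclusters at equal weight 4 members were past the fold, all lower, where 3.3% of features were. Measures of RNA from other cells moved with these values. Tumour-gene UMIs, set against those of empty droplets, corresponded to 11.9% and 18.9% free RNA in granzyme-low and 6.46% and 13.7% in granzyme-high cells, in control and knockdown. The summed Cd3 genes stood at 33.5 and 87.7 CPM, and at 109 and 232.6 CPM. Their part in the result was not tested.

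In CD8 T-like cells 3 receptors that these cells are known to take up on activation were near level between the libraries when the class was summed. Klrc1 stood at 409.2 and 428.5 CPM from 451 and 1134 UMIs (1.05, 0.938 to 1.17). Klrd1 stood at 749.5 and 752.7 CPM (ratio interval 0.926 to 1.09), and Klrk1, a costimulatory receptor in T cells, at 319.4 and 324.2 CPM (1.02, 0.896 to 1.15). Within the class the subclusters differed. In the largest, of 89 and 378 cells in control and knockdown, the ratio of Klrc1 was 0.846 (0.722 to 0.994). In a subcluster led by Ccl5 and Ly6c2, which held 27 of 286 control and 225 of 1062 knockdown cells, Klrc1 stood at 253.6 and 488.1 CPM (1.93, 1.27 to 3.02). Klre1 was higher in knockdown over the whole class, 103.4 against 143.6 CPM (1.39, 1.12 to 1.73), with thinned shares of 7.87% and 13.2%. By subcluster, its interval left out 1 only in a cycling one of 26 and 90 cells (2.93, 1.55 to 6.12). In a subcluster led by S1pr1, which held 116 of 286 control and 280 of 1062 knockdown cells, the ratio was 0.714 (0.440 to 1.16). In CD8 T-like cells Klrc1 was 2.07 times its NK-like level in control and 1.99 times in knockdown.

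Of the 10 members, 6 had the 50 UMIs required in CD8 T-like cells. Of these 1 was past the fold of 1.5, Klra4, higher in knockdown, where 5.52% of 7231 features were. None was lower, where 2.43% of features were. The 6 had a median log2 ratio of 0.04, and all features one of 0.05. Klra4 had 7 UMIs in control and 92 in knockdown, 6.35 and 34.8 CPM (5.47, 2.55 to 14.0). The 92 UMIs lay in 88 cells, at most 2 in any cell. With free RNA subtracted, too few of its UMIs were left for the rule, and so too with cells thinned to 1000 UMIs, at a ratio of 10.4. Its level is set beside that of tumour RNA below. The other Ly49 genes were rare in CD8 T-like cells. Klra7 had 33 and 60 UMIs (29.9 and 22.7 CPM), of which 31 and 51 lay in a single subcluster, led by S1pr1, Lef1 and Tcf7 among others, genes of naive and memory T cells, at 102.2 and 102.0 CPM. Klra3 had 23 and 21 UMIs, too few for the rule, or 20.9 and 7.94 CPM (0.380, 0.200 to 0.719). Klra9 stood at 5.44 and 10.6 CPM (1.94, 0.790 to 5.74) and Klrb1c at 11.8 and 13.6 CPM, and Klra8 had 2 and 5 UMIs. With finer subclusters, the class kept fewer of these cells, and the ratio of Klra7 was 2.54 (0.575 to 23.2). In the S1pr1 subcluster Klrc1 stood at 201.2 and 218.0 CPM, against 535.6 and 453.1 CPM in the largest CD8 T-like subcluster.

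Outside NK-like and T-like cells, Klra4 was unlike the other members. Tumour-like cells held 19421 Klra4 UMIs in control and 26077 in knockdown, 188.9 and 261.6 CPM, while each of the other 9 members stood at 1.42 CPM or below there. Its ratio was 1.38 (1.36 to 1.41). Of the 5 members with 50 UMIs in tumour-like cells, Klrc1 (1.94), Klrd1 (1.58) and Klrk1 (1.57) were past the fold of 1.5 at these low levels, all higher in knockdown, where 10.4% of 15259 features were. None was lower, where 4.02% were. In the empty droplets the levels were above these and were also higher in knockdown for Klrc1 (10.7 and 20.7 CPM) and Klrd1 (30.8 and 56.2 CPM), with Klrk1 at 13.8 and 14.8 CPM, and their part in the tumour-like values was not tested. Klra4 was present in all 8 tumour-like clusters, at 97.0 to 285.8 CPM in control and 141.3 to 297.1 CPM in knockdown, with ratios of 1.02 to 1.62 over the clusters. In the cluster with the most Klra4 UMIs the interval of the ratio (0.983 to 1.05) included 1. The 2 clusters with the lowest Klra4 levels held 1020 and 759 control but 508 and 323 knockdown cells, so the pooled ratio also carries the mix of clusters. Klra4 was among the 10 leading genes of the cluster with the most Klra4 UMIs. Against cells of other classes, it was among the 10 leading genes of another tumour-like cluster. After thinning, 16.1% (14.5 to 17.8) of control and 21.5% (19.7 to 23.4) of knockdown tumour-like cells had a Klra4 UMI. Unthinned, the shares were 76.9% and 81.7%. In GENCODE vM21 no other gene overlapped Klra4, whose span there is chr6:130043731-130067271 on the minus strand. Of the 20 features within 500 kb on either side, Klra6 had the next highest level in tumour-like cells, 2.56 CPM.

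Because tumour-like cells held most Klra4 RNA, free tumour RNA can add Klra4 to other droplets. Droplets with at most 100 UMIs, taken as empty, held Klra4 at 111.1 CPM in control and 198.2 CPM in knockdown. Per 100 UMIs of 4 tumour genes (Cdkn2a, Hmga2, H19 and Igf2bp3), there were 13.1 and 24.5 Klra4 UMIs in tumour-like cells, 10.5 and 27.3 in the empty droplets, and 7.68 and 28.1 in macrophage/monocyte-like cells. CD8 T-like cells had 6.73 and 31.0. NK-like cells had 467.9 and 241.0, far outside it. At the tumour-like cells' ratio, the tumour genes seen in CD8 T-like cells would bring 12.3 and 27.5 CPM of Klra4, beside 6.35 and 34.8 CPM observed. In NK-like cells 337.0 and 230.1 CPM remained after that amount was taken off. Relative to tumour genes, Klra4 in CD8 T-like cells was close to its level in macrophage/monocyte-like cells in both libraries, and in NK-like cells it was far above it. How much of the Klra4 in either class came from free tumour RNA was not tested.

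**Figure D2:**
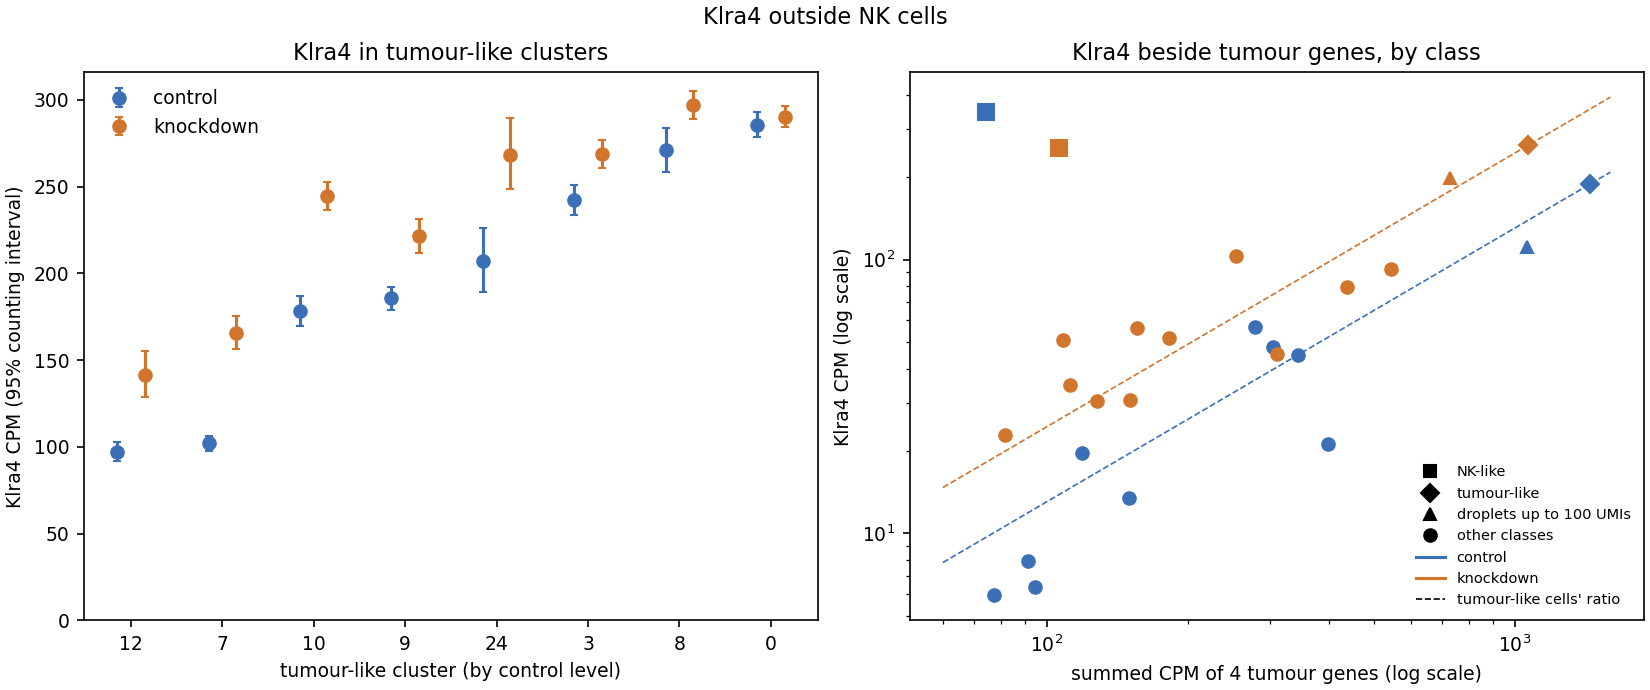
Left, Klra4 CPM in the 8 tumour-like clusters of each library. Right, Klra4 CPM against the summed CPM of 4 tumour genes per cell class (both log axes), with a dashed line at the tumour-like cells' ratio in each library and classes with 0 Klra4 UMIs not drawn. CD8 T-like cells lie near the line, and NK-like cells far above it.

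Some of the other receptors were found in myeloid cells. Dendritic-like cells, 249 in control and 211 in knockdown, held Klrd1 at 239.2 and 242.2 CPM and Klrk1 at 216.5 and 142.7 CPM (0.659, 0.519 to 0.831). Klrd1 was seen in 18.1% and 16.7% of them after thinning, and Klrk1 in 16.1% and 11.1%. Klrb1c and Klre1, which were highest in NK-like cells, were low there, with 0 and 2 UMIs and 20 and 6 UMIs. Klrc1, which was highest in CD8 T-like cells, had 1 and 3 UMIs. A count of 0 allows up to 2.27 CPM in the control dendritic-like cells, by 3 counts. The larger dendritic-like cluster, whose leading genes include Siglech and Ccl17 and also the antibody genes Igkc and Ighg2c, had Klrd1 at 289.5 and 285.2 CPM, and a cluster with Ccr7, a gene of migratory dendritic cells, had 81.4 and 110.9 CPM. In macrophage/monocyte-like cells Klrk1 stood at 27.3 and 25.4 CPM from 847 and 536 UMIs, highest in a cluster marked by Ccl12 at 94.5 and 59.5 CPM. Of 3 members with 50 UMIs there, Klra4 (5.93 and 22.9 CPM, 3.85) and Klrd1 (2.68 and 4.27 CPM, 1.59) were past the fold of 1.5, higher in knockdown, where 6.21% of 12496 features were. None was lower, where 1.3% were. Free RNA, by tumour genes, corresponded to 7.29% and 11.2% of UMIs in these cells, and its part in the Klrd1 value was not tested. Gamma-delta T-like cells had 3 and 25 Klrk1 UMIs, and regulatory T-like cells at most 7 UMIs of Klrc1, Klrd1 or Klrk1 in either library.

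For each member, the 3 genes of most similar pattern were found over the lymphocyte subclusters of each library with at least 50 cells. These were 17 points that share their library and depth. They include an unnamed subcluster of the knockdown library, of 163 cells with a median of 793 UMIs. The measure was Pearson's r of log2(CPM + 1), as a description over 5691 genes. Klra8 was nearest Tyrobp (0.931), Rin3 (0.925) and the NK receptor gene Ncr1 (0.920). Klra4 was nearest Tyrobp (0.877), Fcer1g (0.826) and Fcgr3 (0.824), the last pair being the Fc receptor chains of NK cells. The inhibitory Klra7 and Klra9 shared 1700025G04Rik (0.913 and 0.943) and Gas7 (0.875 and 0.888), and Klra7 also had Eomes (0.875), a transcription factor of NK cells. Klra3 was nearest Cd244a (0.921), Gzma (0.911) and Tm6sf1 (0.902). For the other members the nearest genes were Fcer1g for Klrb1c (0.942), B4galnt1 for Klrc1 (0.918), Ctsw for Klrd1 (0.926), Atp8b4 for Klrk1 (0.955) and Ctsw for Klre1 (0.946).

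Some other genes of these receptor systems were past the fold in NK-like cells, where 5.97% of all features were higher and 3.23% lower. Of 8 further Ly49 genes, 6 were matched and 2 had 50 UMIs, Klra1 (ratio 0.865) and Klra5 (0.727), and neither was past the fold of 1.5. Of 11 further Klr genes 6 had 50 UMIs and none was past it. Of 11 adaptor and signalling genes tested, Inpp5d, a phosphatase that inhibitory receptors recruit, was past the fold at 1.51 (1.31 to 1.74). Hcst, the adaptor of NKG2D, stood at 285.2 and 315.9 CPM (1.11), and Fcer1g at 2091 and 1695 CPM (0.811). Of 10 other NK receptor genes, Pdcd1, the inhibitory receptor PD-1, was higher, 12.6 against 39.1 CPM (3.11), and the activating receptor Ncr1 was lower, 353.3 against 232.5 CPM (0.658). None of 8 maturation genes was past the fold, 1 of 4 genes of tissue-resident cells (Rora) was higher, and of 5 granzyme C to G genes Gzmf was lower (0.622), with the 5 ratios between 0.622 and 0.745. In CD8 T-like cells Klri2 (1.74), Klrh1, listed as Gm156 (1.82), and Tyrobp (39.0 against 73.3 CPM, 1.88) were higher in knockdown. Tyrobp is abundant in macrophage/monocyte-like cells (2180 and 2214 CPM), and free RNA in CD8 T-like cells corresponded to 5.41% and 9.98% by macrophage genes and 8.90% and 15.5% by tumour genes. Its part in these values was not tested. Of 12 other NK receptor genes in CD8 T-like cells, Slamf6 and Cd226 were lower. Over all features in these cells, 5.52% were higher and 2.43% lower.

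On the ligand side, 2 of 4 MHC class I genes tested in tumour-like cells were past the fold of 1.5, both lower in knockdown, where 4.02% of all features were. H2-D1, which encodes a classical class I heavy chain, stood at 1938 and 1261 CPM (0.651), and H2-T23, which encodes Qa-1, the ligand of CD94 with NKG2A, at 24.9 and 13.8 CPM (0.553). H2-K1 stood at 1583 and 1167 CPM (0.738), and B2m, the light chain of class I, at 2871 and 2802 CPM (0.976). In macrophage/monocyte-like cells none was past the fold, and H2-T23 stood at 393.5 and 342.1 CPM. The NKG2D ligand genes with enough UMIs in tumour-like cells were Ulbp1, at 81.0 and 112.8 CPM (1.39), and Raet1e, at 19.4 and 16.1 CPM (0.830), neither past the fold. In macrophage/monocyte-like cells Raet1e stood at 27.0 and 24.4 CPM, Ulbp1 at 16.2 and 22.3 CPM and Raet1d at 7.55 and 5.08 CPM. Of the 4 ligand genes of Klrb1 and Klrg1 receptors tested in tumour-like cells, Clec2g was higher, 0.418 against 1.05 CPM (2.52), while Clec2d, a ligand of inhibitory Klrb1 receptors, stood at 33.4 and 31.1 CPM.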

How the data were processed

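The authors deposited 2 unfiltered UMI count matrices, 1 per library, made with Cell Ranger 4, per the file headers. No source used here names the genome build or annotation. The receptor genes, gene lists and comparisons were chosen with earlier results of these data known, and the naming thresholds after the data were seen.

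Droplets were kept from 500 UMIs and 250 genes upwards, if mitochondrial UMIs did not exceed 20% and the profile differed from that of droplets with at most 100 UMIs (1000 draws, false discovery rate 0.01). Empty-like profiles removed 5264 of 16874 control and 9989 of 26702 knockdown droplets above the UMI minimum. Simulated doublets marked 363 and 676 cells (3.15% and 4.06%), which were removed. Clustering left out all genes listed under a Klr symbol, but not Klrh1, which is listed as Gm156. It used 2000 variable genes, 30 principal components, 15 neighbours and Leiden at resolution 1. A class needed at least 3 markers, each at 20 CPM and 25% of the highest cluster's level.

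For each class, the UMIs of a library were summed and divided by their total. Ratios carry conditional binomial intervals, levels exact Poisson and shares Clopper-Pearson ones, all at 95%, and were tested on simulated data. Called ratios needed 50 UMIs over both libraries, a fold of 1.5 (2 between classes) and an interval leaving out 1. A count of 0 allows 3 counts. The text names all members, genes of the lists, each member's 3 nearest patterns and leading genes of NK subclusters. Of the alternative settings, 18 were planned for 1 or more results and 6 were added for others after the data were seen.

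Python 3.11.15 was used with numpy 2.4.6, scipy 1.17.1, scikit-learn 1.9.0, leidenalg 0.10.2, matplotlib 3.10.9 and Biopython 1.88.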

Additional observations from a re-analysis of the deposited data

Results flagged for a closer look

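Klra4 and Klre1 differed in direction between cell classes. The knockdown over control ratio of Klra4 was 0.739 in NK-like cells and 5.47 in CD8 T-like cells. In CD8 T-like cells too few UMIs were left for a call with free RNA subtracted, and tumour RNA would bring 12.3 and 27.5 CPM beside 6.35 and 34.8 CPM observed. The value in NK-like cells was 1.03 with classes from each cell's own UMIs. For Klre1 the ratio was 0.865 in NK-like cells and 1.39 in CD8 T-like cells. In each case the 2 intervals lay on opposite sides of 1. Among the CD8 T-like subclusters, the interval of Klre1 left out 1 only in the cycling one. With 1 library per group the difference between classes was not tested.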

How the results depend on the processing

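Klra7 was lower in knockdown NK-like cells in every setting tried, with ratios of 0.263 to 0.544. The count of members past the fold there, 1 as reported, was 2 with the mean of the cells' own CPM, 2 with median-ratio scaling, 3 at a fold of 1.3 and 4 with cells thinned to 1000 UMIs, all lower, where 5.84%, 4.11%, 5.28% and 2.97% of all features were. It was 2 in granzyme-high, 5 in granzyme-low and 5 in cycling cells, and 4 with both larger subclusters at equal weight, where 2.66%, 4.08%, 4.82% and 3.3% of all features were lower. The median log2 ratio of the members was -0.57 with thinned cells, -0.73 in granzyme-low and -0.70 in cycling cells. In CD8 T-like cells the count was 2 with the mean CPM, 0 with free RNA subtracted, 2 at a fold of 1.3 and 2 with no minimum of UMIs (1 higher and 1 lower), where 5.99%, 5.9%, 8.66% and 3.4% of all features were higher. In the same settings 5.21%, 3.51%, 4.4% and 1.94% of all features were lower. The count of members with a lower share of CD8 T-like cells in knockdown was 5 with cells thinned to 1000 UMIs and 3 with 500 UMIs. It too has no count over all features beside it. With classes from each cell's own UMIs, the NK-like ratio of Klra4 was 1.03. Of 150 ratios of single members in NK-like cells under alternatives, 122 stayed within the interval, 28 moved and 0 reversed, and of 71 in CD8 T-like cells 65, 6 and 0. Only a member past the fold as reported could count as reversed, Klra7 in NK-like and Klra4 in CD8 T-like cells. Over the settings, NK-like ratios of Klra3 (0.478 to 1.21), Klra4 (0.2365 to 1.03), Klra8 (0.38 to 1.19) and Klrk1 (0.542 to 1.02) crossed 1. So did those of Klrb1c and Klrc1, while those of Klra7, Klra9, Klrd1 and Klre1 stayed below 1. In CD8 T-like cells Klra7, Klrc1, Klrd1 and Klrk1 crossed 1, and Klra4 and Klre1 stayed above it. Why values moved was not tested. No paired analysis was possible because each group has 1 library and the labels give no replicate numbers. Depth limits the rarer genes most, as Klra8 in CD8 T-like cells rests on 2 and 5 UMIs, and intervals do not cover the spread between tumours.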

Other observations

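Klra5, which encodes Ly49E, was higher in granzyme-high than in granzyme-low NK-like cells of both libraries. In control it had 0 UMIs in granzyme-low cells, which allows up to 11.2 CPM, and stood at 111.1 CPM in granzyme-high cells, at least 9.94-fold higher by a floor of 3 counts over the group. In knockdown it stood at 11.9 and 104.4 CPM. Klrb1b, an inhibitory relative of NK1.1, stood at 264.7 CPM in control and 346.9 CPM in knockdown NK-like cells.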
